A study of Mus musculus with 6 samples.

Results

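The genes described here encode the machinery with which nerve terminals store and release transmitter. A list of 39 genes was examined: calcium sensors, SNAREs and their regulators, vesicle membrane proteins, vesicular glutamate transporters, endocytic proteins and 1 scaffold. Members were found by gene symbol in the platform annotation, and each gene was represented by its probe set of highest mean signal over the 6 arrays. Of the 39 genes, 35 had a probe set named for them alone, among 12393 genes so represented in the whole table. Of these 35, 33 were bright enough to be tested, among 8159 tested genes. Sv2b, Sv2c, Synj1 and Slc17a8 were not analysed here, and Syt2 and Vamp1 lay below the filter.

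Retinal total RNA was taken at postnatal day 7 from 3 wildtype and 3 knockout samples, both labelled as C57BL/6, and hybridised to Affymetrix arrays. No other allele or treatment is named for either group, and the sex of the animals is not given. The labels do not say whether 1 array held RNA of 1 animal or of several, so the error of every test is the spread from array to array, whatever its source. The comparison asks which transcripts differ between the groups at an age when retinal synapses are being formed.

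A synaptic vesicle is filled by a proton-driven transporter, docked at the terminal membrane and primed by the assembly of a vesicle SNARE with target membrane SNAREs into a tight helical bundle. Calcium entry acts on synaptotagmins, which trigger fusion together with complexins. NSF and its SNAP adaptors then take the spent SNARE bundle apart, and dynamin, amphiphysin and their partners retrieve the membrane. In the rodent retina, conventional amacrine synapses of the inner plexiform layer form before the ribbon synapses of photoreceptors and bipolar cells, and the first postnatal weeks hold most of this build-up.

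The total brightness of the deposited arrays differed, with trimmed means of 171 to 312 in wildtype and 263 to 304 in knockout, so signals were rescaled to a common trimmed mean and are in arbitrary units. Knockout array 1 stood apart: over all tested probe sets its correlation with the other arrays was 0.914 to 0.936, against 0.958 to 0.979 among the other 5. Over the 33 members it was 0.900 to 0.941, against 0.972 to 0.990. The ratio of the 3' to the 5' Actb control probe sets, which rises when RNA is shortened or copied incompletely, was 2.17 in knockout array 1, 1.69 and 1.90 in the other knockout arrays and 1.44 to 1.64 in wildtype. The scaled signal of the 5' probe set for 18S RNA reached 2573 on the array of wildtype 2 and 609 on that of knockout 1, and was 38.8 to 54.9 on the remaining 4. Values of named members that moved most when knockout array 1 was left out are given with and without it.

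The tissue label was checked against marker genes, by the number of tested markers and the range of a summed scaled signal. The sum ran over all listed markers with a probe set, including those below the filter. Photoreceptor markers had 7 of 8 tested, with 25966 to 28129 in wildtype and 23416 to 27898 in knockout. Bipolar markers had 6 of 8 tested (3571 to 3623 and 3405 to 3931), amacrine and horizontal markers 8 of 8 (4522 to 5027 and 4754 to 4909), and ganglion cell markers 6 of 8 (6348 to 7227 and 6675 to 7116). Mueller glia and progenitor markers had 7 of 8 tested (6112 to 6889 and 6048 to 7416). The groups overlapped in each of these 5 retinal lists, and 0 of their tested markers passed the test in limma. Of other tissues, lens markers had 2 of 8 tested (39.9 to 871 and 78.2 to 428). The sums of 871 and 428 came from wildtype array 3 and knockout array 3. Cryaa read 251 on wildtype array 3, 130 on knockout array 3 and 4.45 to 17.2 elsewhere. For Cryba1 these values were 398, 176 and 6.68 to 65.6, and for Crygd 125, 51.4 and 2.71 to 7.51. The lens fibre genes Mip and Bfsp1 had mean signals of 5.84 and 3.02. Pigment epithelium markers had 5 of 6 tested (1119 to 2910 and 2085 to 3261). Blood markers had 0 of 4 above the filter (52.6 to 72.0 and 42.5 to 66.8). Muscle markers had 3 of 5 tested and were the one list whose groups did not overlap (328 to 415 in wildtype, 216 to 266 in knockout). The part of these tissues in the values below was not tested.

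At postnatal day 7, 33 of the release machinery genes had a mean scaled signal above the filter of 62.4, and no member differed between the groups past the test. Of 33 tested members, 0 had an adjusted p under 0.05 in limma, and the lowest adjusted p was 0.999. Across the table, 2 of 13575 probe sets (0.0147%) and 0 of 8159 genes (0%) passed. Leaving out wildtype array 3 turned the 2 into 0, leaving out wildtype array 2 into 4, and leaving out either of knockout arrays 2 and 3 into 1; in each of these fits 0 members passed. An unadjusted p under 0.05 was reached by 2 members, Vamp2 and Syt1, against 2.33% of all tested genes. Log2 fold changes, knockout minus wildtype, were positive for 16 members and negative for 17, where 55.2% of all tested genes were positive. That split depended on the scaling: 23 members were positive with median scaling and 32 without rescaling. The median over all tested probe sets moved as well, to 0.088 with median scaling and 0.29 without rescaling. With the main scaling the members had a median of -0.026, against 0.021 over all tested genes. In retinal RNA of many cell types, fewer cells of a type and less RNA per cell cannot be told apart.

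The precision of these values was limited by 3 arrays a group: the median width of the 95% interval of a member's log2 fold change was 0.82. For 14 of the 33, that interval reached a difference of 1.5-fold or more. Of the 33, Syt1 alone differed by at least 1.5-fold in the 6-array fit, against 1.27% of all tested genes. For 5 members all 3 knockout arrays lay on 1 side of all 3 wildtype arrays: Vamp2, Napa and Stx4a were higher and Syt1 and Ykt6 lower. That is 15.2% of tested members, where the same held for 7.89% of all tested genes, 4.58% higher and 3.31% lower. At least 1.5-fold apart as well was 1 member, Syt1, against 0.601% of genes. Without knockout array 1 the count was again 5, which was 15.2% of members against 17.9% of genes, since 2 arrays separate more easily from 3. It was 9 without wildtype array 1 and 12 without knockout array 2, where 16.5% and 19.4% of genes were so separated. Without rescaling it was 4 higher and 0 lower (Vamp2, Stx1a, Napa and Syn1), so Syt1, Ykt6 and Stx4a were no longer apart. That was 12.1% of members against 9.84% of genes, in a setting where the median over all tested probe sets was 0.29.

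**Figure D1:**
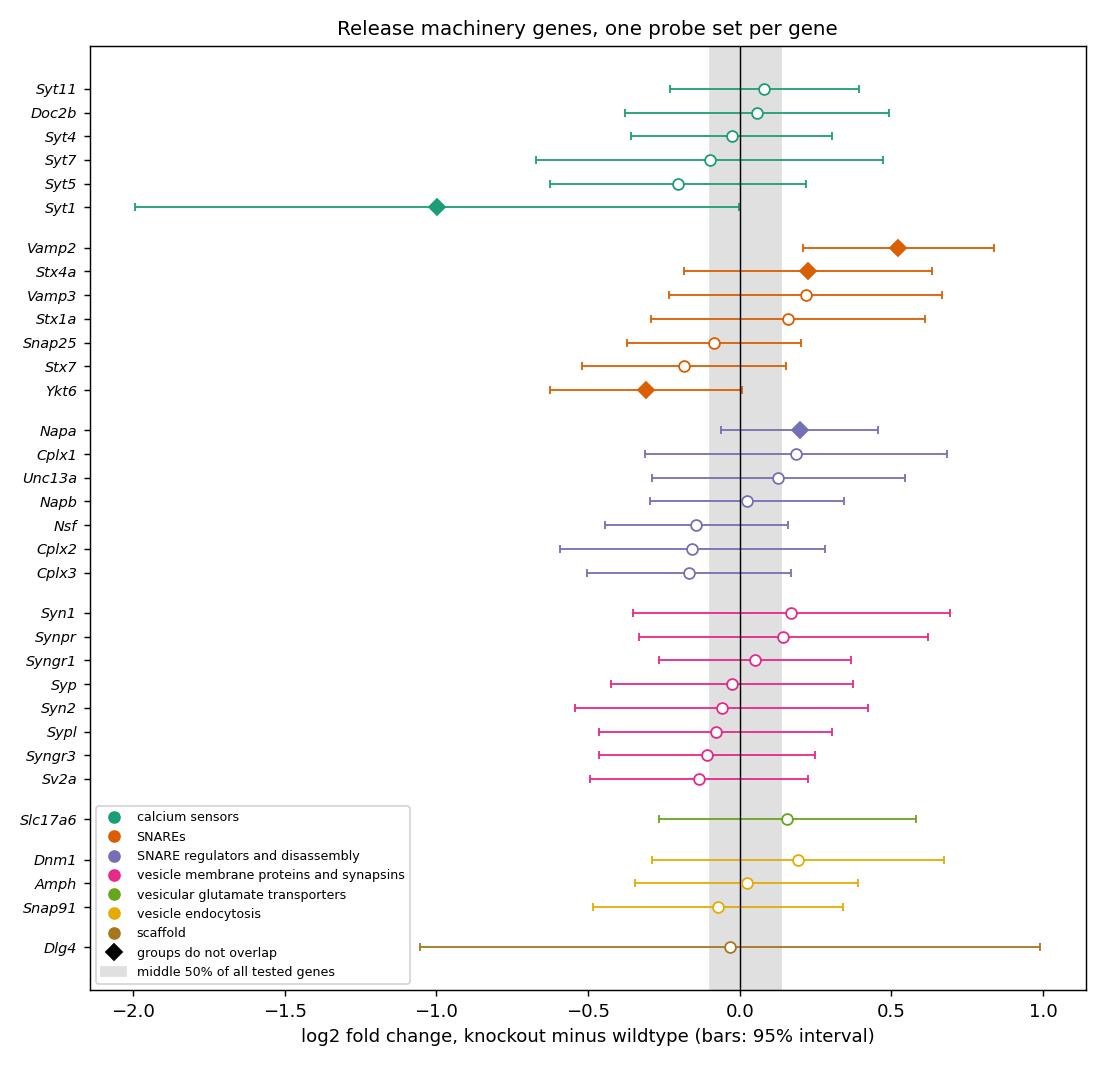
Log2 fold change of each tested member, knockout minus wildtype, with its 95% interval, coloured by role; filled diamonds mark genes whose groups did not overlap and the grey band spans the quartiles of all tested genes. The points lie between -0.998 (Syt1) and 0.52 (Vamp2), and 31 of the 33 intervals span 0, all but those of Vamp2 and Syt1.

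Among the calcium sensors, Syt1 had the largest difference and that difference rested largely on 1 array. Syt1 encodes synaptotagmin-1, the vesicle calcium sensor for fast synchronous release. Its scaled signal was 1148, 1307 and 1354 for wildtype against 244, 1063 and 917 for knockout. The knockout arrays were all lower, but knockout array 1 was far below the other 5. The group means were 1270 ± 108 (SD, n = 3) for wildtype against 741 ± 437 for knockout, with a log2 fold change of -0.998 ± 0.44 (SE; limma adjusted p = 0.999). Without knockout array 1 the log2 fold change was -0.35. The other Syt1 probe set, with 589, 705 and 740 for wildtype against 185, 663 and 484 for knockout, was also lowest in knockout array 1 (log2 fold change -0.75, and -0.25 without that array).

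Among the other sensors, no groups were apart on the probe sets of highest mean. Of the 6 sensors tested, Syt1 included, 2 had positive and 4 negative log2 fold changes, with a median of -0.063. Syt5, another synaptotagmin, had a scaled signal of 83.4, 108 and 93.9 for wildtype against 71.6, 84.5 and 83.1 for knockout. Its groups overlapped narrowly (log2 fold change -0.20 ± 0.19, SE; limma adjusted p = 0.999). Syt4, a synaptotagmin whose first C2 domain lacks normal calcium binding, had 572 ± 56.2 and 560 ± 18.1 (SD, n = 3). Syt7, a high-affinity sensor linked to asynchronous release, had a log2 fold change of -0.10, Syt11 of 0.08 and the soluble sensor Doc2b of 0.06. Syt2, the synaptotagmin of fast central synapses, had a scaled signal of 51.2 ± 14.2 for wildtype against 50.8 ± 15.7 for knockout and was below the filter.

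Among the SNAREs, Vamp2 had the smallest unadjusted p of all members. Vamp2 encodes synaptobrevin-2, the main SNARE of synaptic vesicles. Its scaled signal was 769, 652 and 774 for wildtype against 1107, 1045 and 1021 for knockout. Every knockout array was above every wildtype array, and knockout array 1 was close to the other 2. The means were 732 ± 69.2 (SD, n = 3) and 1058 ± 44.7, a ratio of 1.44, and the log2 fold change was 0.52 ± 0.14 (SE; 95% interval 0.21 to 0.84; limma adjusted p = 0.999). It was 0.49 without knockout array 1. The other Vamp2 probe set had the opposite sign: 119, 238 and 245 for wildtype against 80.9, 191 and 98.1 for knockout, with overlapping groups (log2 fold change -0.64, and -0.43 without knockout array 1). With all tested probe sets of the gene averaged, Vamp2 had -0.060, so the direction of its difference depended on the probe set.

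Ykt6, a prenylated SNARE without a membrane-spanning segment that acts in Golgi, endosomal and autophagosomal fusion, had lower values in all 3 knockout arrays on both of its probe sets. The brighter probe set had a scaled signal of 959, 1024 and 885 for wildtype against 744, 723 and 839 for knockout. The groups lay close together without overlapping (log2 fold change -0.31 ± 0.14, SE; limma adjusted p = 0.999), and without rescaling of the arrays the value was 0.0025. The second probe set had 266, 439 and 293 for wildtype against 101, 220 and 141 for knockout. Its log2 fold change was -1.05 ± 0.28 (SE), and -0.81 without knockout array 1. It did not pass the test either (limma adjusted p = 0.999).

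Stx4a, the plasma membrane syntaxin of constitutive and regulated exocytosis, had 80.5, 106 and 105 for wildtype against 115, 114 and 119 for knockout. The knockout arrays were tightly grouped just above the wildtype ones (log2 fold change 0.22 ± 0.18, SE; limma adjusted p = 0.999). Stx7, a late endosomal syntaxin, had 969, 1125 and 1192 for wildtype against 846, 1055 and 989 for knockout, with overlapping groups (log2 fold change -0.18 ± 0.15, SE; -0.094 without knockout array 1). Vamp3, or cellubrevin, the SNARE of recycling endosomes, had 784, 665 and 845 for wildtype against 1120, 671 and 930 for knockout. Its log2 fold change of 0.22 ± 0.20 (SE) was 0.052 without knockout array 1, which was the highest. A dimmer Vamp3 probe set had 107, 114 and 151 for wildtype against 39.5, 100 and 81.6 for knockout. On it every knockout array was lower (log2 fold change -0.67, and -0.37 without knockout array 1). The remaining tested Vamp3 probe sets had -0.082, 0.15 and 0.11. Snap25, the target membrane SNARE of neurons, had 3193, 2786 and 3298 for wildtype against 2594, 3316 and 2853 for knockout. Its groups overlapped fully, and its log2 fold change was -0.085 ± 0.13 (SE; 95% interval -0.37 to 0.20), or -0.0038 without knockout array 1. Stx1a, its syntaxin partner at the plasma membrane, had a log2 fold change of 0.16, and of -0.013 without knockout array 1. Of 7 SNAREs tested, 4 had positive and 3 negative log2 fold changes, with a median of 0.16. Vamp1, the synaptobrevin of spinal and motor terminals, had signals of 14.2 to 18.8 in 5 arrays and 65.2 in knockout array 2, below the filter.

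**Figure D2:**
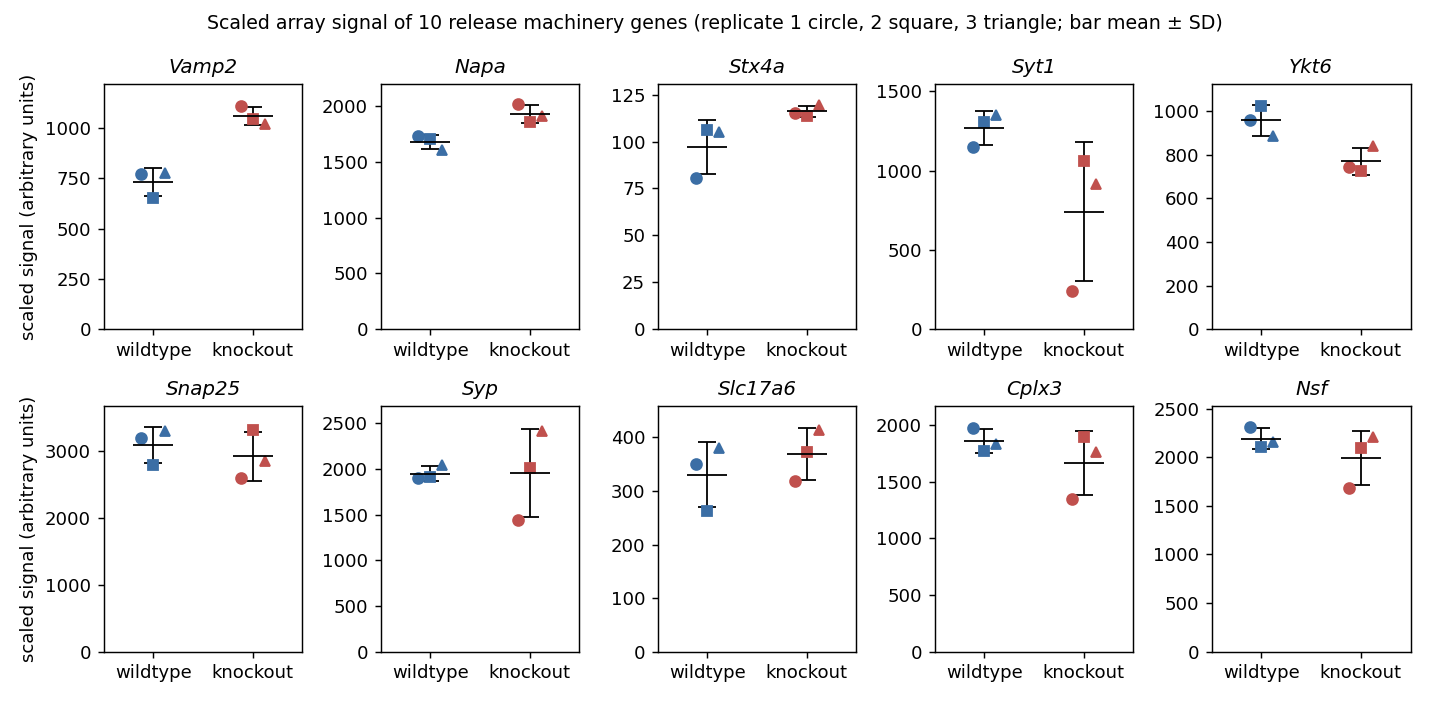
Scaled signal of 10 members in each array, in arbitrary units from 0, with circles, squares and triangles for replicates 1, 2 and 3 and a bar for mean ± SD (n = 3). Vamp2, Napa and Stx4a had every knockout value above every wildtype value, Syt1 and Ykt6 every knockout value below, and knockout array 1 is the low point of Syt1 at 244.

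Of the SNARE regulators and disassembly factors, 4 of 7 had positive log2 fold changes and the median was 0.024. Napa encodes alpha-SNAP, the adaptor that recruits NSF to used SNARE bundles. Its scaled signal was 1728, 1701 and 1602 for wildtype against 2015, 1854 and 1910 for knockout, higher in every knockout array (log2 fold change 0.20 ± 0.12, SE; limma adjusted p = 0.999). On its second probe set the log2 fold change was 0.14, the same sign. Nsf, the ATPase that pulls SNARE bundles apart, had 2308, 2104 and 2158 for wildtype against 1683, 2091 and 2204 for knockout. The groups overlapped, and the log2 fold change of -0.14 ± 0.13 (SE) was -0.027 without knockout array 1.

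The complexins, small proteins that bind the assembled SNARE bundle, did not differ past the test. Cplx3 is the complexin of retinal ribbon synapses and some amacrine cells. Its scaled signal was 1977, 1775 and 1829 for wildtype against 1352, 1893 and 1763 for knockout. Knockout array 1 was the lowest and the other knockout arrays lay within or near the wildtype range (log2 fold change -0.17 ± 0.15, SE; -0.024 without knockout array 1). Cplx1 and Cplx2, the complexins of conventional synapses, had log2 fold changes of 0.18 and -0.16, or 0.014 and -0.23 without that array. On the other tested Cplx1 probe sets the values were 0.021 and -0.46, with overlapping groups. The log2 fold change of Unc13a, the priming factor Munc13-1, was 0.13, and Napb, the brain beta-SNAP, had 0.024.

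The vesicle membrane proteins and synapsins had no member whose groups were apart. Of 8 tested, 3 had positive and 5 negative log2 fold changes, with a median of -0.043 and a range of -0.13 to 0.17. Syp encodes synaptophysin, the abundant vesicle protein commonly used to stain synaptic layers. Its scaled signal was 1901, 1910 and 2043 for wildtype against 1446, 2010 and 2413 for knockout. The knockout arrays lay on both sides of the wildtype arrays, with means of 1951 ± 79.6 and 1956 ± 486 (SD, n = 3; log2 fold change -0.026 ± 0.18, SE; 0.17 without knockout array 1). Sv2a, a vesicle glycoprotein and the binding site of levetiracetam, had 845, 657 and 728 for wildtype against 590, 720 and 714 for knockout. Those groups overlapped (log2 fold change -0.13 ± 0.16, SE; -0.043 without knockout array 1). The synaptophysin relatives Synpr and Sypl had log2 fold changes of 0.14 and -0.080, the synaptogyrins Syngr1 and Syngr3 had 0.051 and -0.11, and the synapsins Syn1 and Syn2, which tether the reserve pool, had 0.17 and -0.060. Without knockout array 1 those of Syn1 and Syn2 were -0.019 and -0.15.

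Slc17a6 encodes VGLUT2, the vesicular glutamate transporter of ganglion cells. Its scaled signal was 350, 262 and 380 for wildtype against 318, 373 and 415 for knockout. The groups overlapped (log2 fold change 0.16 ± 0.19, SE), and its second probe set had the opposite sign, with a log2 fold change of -0.56 that was -0.21 without knockout array 1, the lowest at 70.4. Of the 3 endocytic genes tested, Dnm1, the neuronal dynamin that pinches off vesicles, had 1351, 914 and 928 for wildtype against 1341, 903 and 1421 for knockout. In both groups Dnm1 values were spread over about the same range (log2 fold change 0.19 ± 0.21, SE; 0.11 without knockout array 1). The second Dnm1 probe set had the opposite sign, with overlapping groups (log2 fold change -0.41, and -0.29 without that array). The clathrin adaptor Snap91 had a log2 fold change of -0.072 and Amph, amphiphysin, of 0.023. Dlg4 encodes PSD-95, a scaffold found at photoreceptor terminals as well as postsynaptically. Named here after its values were seen, it had 151, 119 and 75.9 for wildtype against 272, 55.0 and 78.0 for knockout. Its log2 fold change was -0.032 with a 95% interval of -1.05 to 0.99, and -0.62 without knockout array 1, the array with the highest value. On the other tested Dlg4 probe set knockout array 1 was the lowest, at 48.1 (log2 fold change -0.047, and 0.17 without that array).

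**Figure D3:**
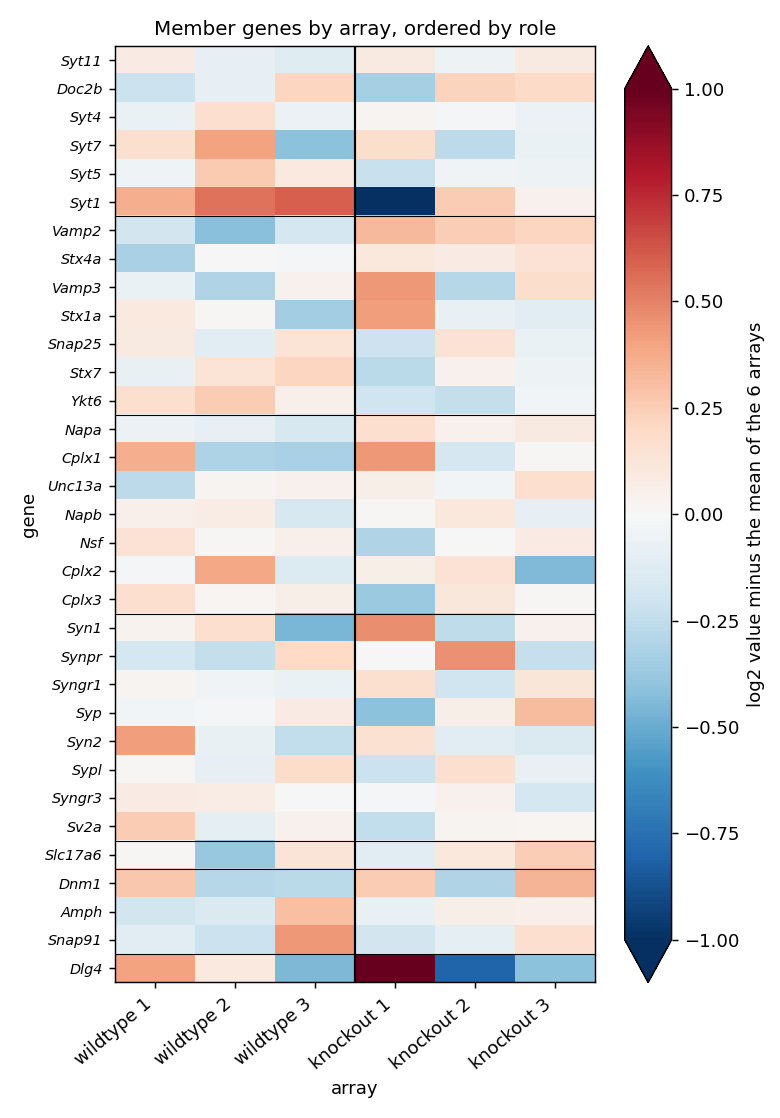
Log2 value of each tested member in each array minus its mean over the 6 arrays, with genes in rows by role and arrays in columns; the colour scale runs from -1 to 1. Knockout array 1 holds the darkest cells in both directions, with Syt1 low and Dlg4 high.

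Over the members, knockout array 1 held the highest value of 8 and the lowest of 10, more of each than any other array. Over all tested genes it held 28.6% of the highest values, more than any other array. Of the lowest values it held 22.3%, and wildtype array 3 held 23.0%. The members' median, centred on each gene's mean, ranged from -0.017 to 0.040 across wildtype and from 0.013 to 0.031 across knockout arrays. The lowest value was in wildtype arrays 1, 2 and 3 for 4, 5 and 8 members, and in knockout arrays 2 and 3 for 4 and 2.

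Different probe sets of 1 member often gave different answers. Of 17 members with at least 2 tested probe sets, 5 had the same sign on all of them (Syt1, Ykt6, Napa, Nsf and Dlg4) and 12 did not. For Dlg4 this rested on knockout array 1, without which its 2 tested probe sets had log2 fold changes of -0.62 and 0.17. The members had 26 other tested probe sets, of which 18 had negative log2 fold changes and 8 were at least 1.5-fold lower, with 0 at least 1.5-fold higher. Over the other tested probe sets of all genes, 59.5% were negative and 7.90% were at least 1.5-fold lower. The median log2 fold change of the members' other probe sets was -0.19, against -0.059 for those of all genes. Without knockout array 1, 1 of the 26 (Ykt6) was at least 1.5-fold lower and the median was -0.15, against 83 of 4381 and -0.027 over the other probe sets of all genes.

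Knockout array 1 was the lowest array for 14 of these 26 probe sets, against 40.6% of the other probe sets of all genes. For the probe sets of highest mean it was the lowest for 10 of 33 members. Napb, chosen after its values were seen, has 5 tested probe sets. Its probe set of highest mean had 865, 878 and 743 for wildtype against 841, 897 and 787 for knockout, with knockout array 1 inside the range. Another Napb probe set had 881, 949 and 913 for wildtype against 135, 914 and 750 for knockout, and a further one had 309, 339 and 313 and then 72.2, 338 and 224. On these, knockout array 1 was far below the other 5 arrays. Of the 2 further Napb probe sets, 1 had 642 in knockout array 1, inside the 589 to 735 of the other arrays, and 1 had 625, below their 670 to 923. Knockout array 1 was therefore far below the rest on 2 of the 5 tested Napb probe sets.

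Syt11 and Doc2b, also chosen after their values were seen, each had 1 probe set far lower in knockout array 1. A second Syt11 probe set had 866, 1105 and 921 for wildtype against 285, 651 and 717 for knockout, with a log2 fold change of -0.88 that was -0.48 without knockout array 1. The Syt11 probe set of highest mean had 875 in knockout array 1 and 756 to 871 in wildtype, and the third had 821 and 627 to 789. A second Doc2b probe set had 547, 459 and 491 for wildtype against 147, 418 and 408 for knockout (log2 fold change -0.72, and -0.26 without that array). On the Doc2b probe set of highest mean, knockout array 1 was also the lowest, at 660 against 717 to 980 in the other arrays. Knockout array 1 also had the highest 3' to 5' ratios of the control genes Actb (2.17) and Gapdh (1.18). The Gapdh ratio was nearly as high in knockout array 3 (1.16) and was 0.82 to 0.98 in the remaining arrays. The part of RNA quality in these values was not tested.

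**Figure D4:**
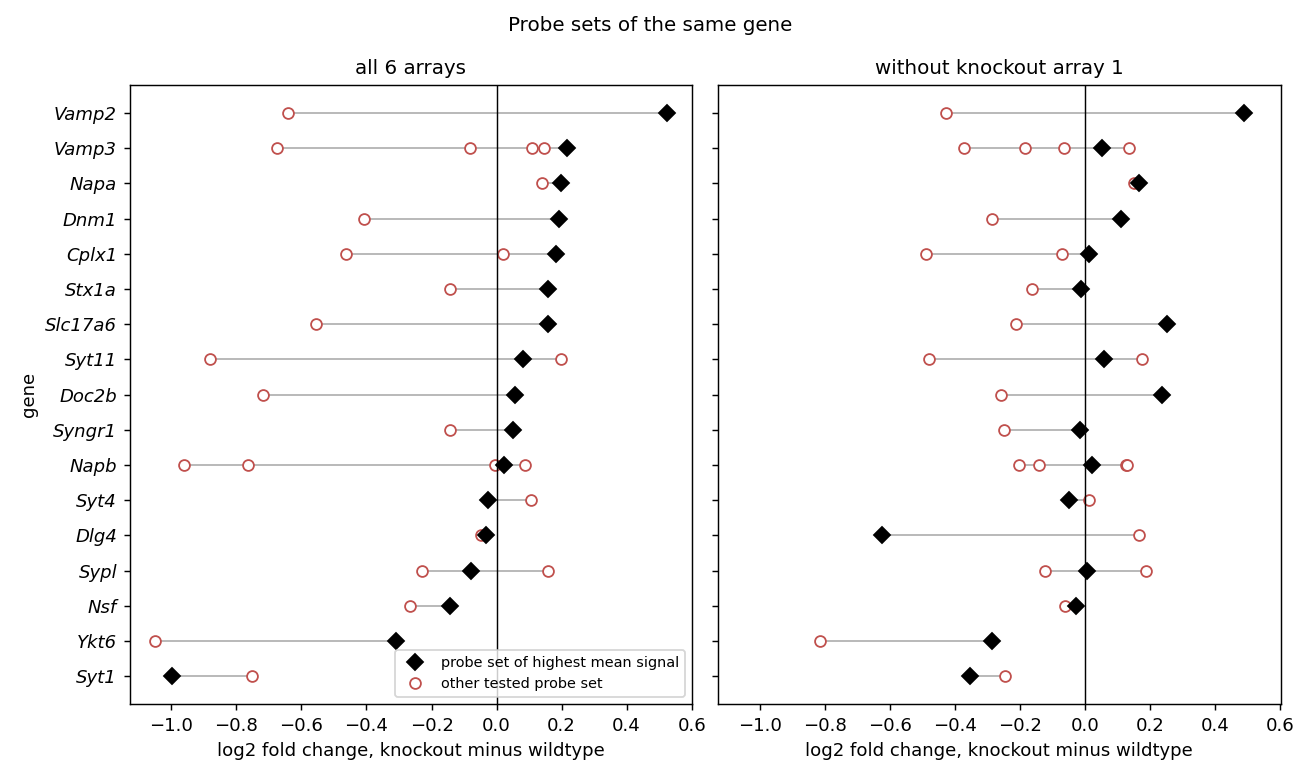
Log2 fold change of every tested probe set of the 17 members that have at least 2, with all 6 arrays on the left and without knockout array 1 on the right; black diamonds are the probe sets of highest mean signal and open circles the others. On the left, the open circles reach -1.05 (Ykt6) while 0.20 (Syt11) is the highest of them; on the right they draw in, and Ykt6 at -0.81 stays the lowest.

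Other genes of the release and recycling pathway were taken from a separate list of 115, of which 88 had a probe set and 73 were tested. None of the 73 passed in limma. An unadjusted p under 0.05 was reached by 2, Sh3gl2 and Vamp7, against 2.33% of all tested genes. Log2 fold changes were positive for 35 and negative for 38, where 55.2% of all tested genes were positive, and the median was -0.012. The groups did not overlap for 7 of them (3 higher and 4 lower), or 9.59%, near the 7.89% over all tested genes. In 0 of these did the difference reach 1.5-fold, against 0.601% of all tested genes.

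The 4 genes of smallest unadjusted p on that list span recycling, SNAREs and vesicle proteins. Sh3gl2, endophilin-A1, which bends the membrane during vesicle retrieval, had 879, 831 and 885 for wildtype against 1015, 1165 and 1260 for knockout. All knockout arrays were higher (log2 fold change 0.39 ± 0.14, SE; limma adjusted p = 0.999). Vamp7, a tetanus toxin-insensitive SNARE of late endosomes, had a log2 fold change of 0.41 ± 0.17 (SE) with every knockout array higher. Svop, a transporter-like vesicle protein, had a log2 fold change of -0.49 ± 0.23 (SE) with overlapping groups, and Syt13, a synaptotagmin without calcium-binding residues, had one of -0.41 ± 0.19 (SE) with every knockout array lower.

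The promoters of 4 of the 5 members whose groups did not overlap are shown so that their regulatory sequence can be read beside their values. Syt1, a neuronal gene, and Ykt6, a gene of general membrane traffic, had lower values, and Stx4a and Napa higher ones. The remaining member, Vamp2, was higher and its promoter is not shown. Each sequence is the 250 bases upstream of a gene start listed by RefSeq on build GRCm38.p6, 5′ to 3′ on the gene's strand, and for Syt1 the first of 2 listed starts. They lie at chr10:109010976-109011225 (minus strand), chr11:5955508-5955757 (plus), chr7:127841558-127841807 (plus) and chr7:16098330-16098579 (plus). Capitals mark, on either strand, the GC box GGGCGG, the CCAAT box CCAAT and the cAMP response element core TGACG.
Syt1: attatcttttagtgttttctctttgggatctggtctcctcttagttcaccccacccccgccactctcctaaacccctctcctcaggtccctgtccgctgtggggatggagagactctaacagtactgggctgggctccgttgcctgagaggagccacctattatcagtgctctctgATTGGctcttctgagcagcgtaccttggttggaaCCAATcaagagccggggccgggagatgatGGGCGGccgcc
Ykt6: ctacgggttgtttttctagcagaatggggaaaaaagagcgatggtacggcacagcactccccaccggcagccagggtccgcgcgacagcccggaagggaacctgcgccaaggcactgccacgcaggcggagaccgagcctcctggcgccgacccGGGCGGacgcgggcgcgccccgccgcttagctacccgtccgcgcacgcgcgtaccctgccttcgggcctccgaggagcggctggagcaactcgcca
Stx4a: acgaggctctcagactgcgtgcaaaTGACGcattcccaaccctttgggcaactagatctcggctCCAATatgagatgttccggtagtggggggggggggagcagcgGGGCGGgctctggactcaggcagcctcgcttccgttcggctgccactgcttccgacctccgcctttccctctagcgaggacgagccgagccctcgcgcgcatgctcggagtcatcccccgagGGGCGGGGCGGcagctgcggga
Napa: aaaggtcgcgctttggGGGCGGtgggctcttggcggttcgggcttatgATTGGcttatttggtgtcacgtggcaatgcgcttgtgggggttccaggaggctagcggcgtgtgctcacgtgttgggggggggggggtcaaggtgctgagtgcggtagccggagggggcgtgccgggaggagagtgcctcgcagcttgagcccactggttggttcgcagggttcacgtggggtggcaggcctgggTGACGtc

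The lower and the higher genes shared the GC box: Syt1, Ykt6 and Napa held 1 match each and Stx4a held 3, 2 of which overlap. The CCAAT box had 2 matches in Syt1, 1 in Stx4a, 1 in Napa and 0 in Ykt6. The TGACG core had 1 match in Stx4a, 1 in Napa and 0 in the Syt1 and Ykt6 windows. Other tested members with the core were Slc17a6, Stx1a, Syn1 and Unc13a, with positive log2 fold changes. Sypl and Dlg4, with negative ones (-0.080 and -0.032), held it too. Several of these signs were not stable: without knockout array 1 Stx1a, Syn1 and Sypl had -0.013, -0.019 and 0.0075. The second probe sets of Slc17a6 and Stx1a had -0.56 and -0.14. Unc13a kept its sign in every setting run. A link between a motif and the direction of a difference was not tested. GC content was 56.4% for Syt1, 70.0% for Ykt6, 66.4% for Stx4a and 65.6% for Napa, against a median of 52.4% over all windows. RefSeq promoters were matched for 27 of the 35 members with a probe set. The GC box was in at least 1 listed window of 19 of the 27, the CCAAT box of 9 and TGACG of 9. Of all 32851 windows, 32.7%, 33.8% and 17.8% hold them. Members were counted by gene and the shares by window, so a gene with several listed starts had more windows to match. The member counts and these shares are therefore not in like units. The full element TGACGTCA, which contains the core, was found in the window of 1 member, Syn1, and in 1.55% of all windows. A match of letters is a description of the sequence, not a measured binding site.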

How the data were processed

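Retinal RNA of 3 wildtype and 3 knockout samples was measured on 1 Affymetrix array each. The authors deposited an intensity for each probe set and array on a linear scale, and the submitters' processing notes name MAS5; the version, scaling target and detection calls are not given in the sources used here. The 64 control probe sets were left out of the test. Arrays were brought to 1 common mean, with 2% trimmed at each end. Values were tested as log2(signal + 19.1), where the pseudocount is the 20th percentile of scaled signals, which understates changes of dim probe sets. The 13575 probe sets with a mean above the 40th percentile (62.4) went into limma 3.58.1 under R 4.3.3 (lmFit, then eBayes with trend), and Benjamini-Hochberg adjustment ran over all of them.

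The members and lists were chosen with earlier results of these data known. Named genes were the members whose groups did not overlap, the 12 of smallest unadjusted p, and Snap25, Vamp2, Syp, Slc17a6 and Cplx3, and on the pathway list those apart by 1.5-fold without overlap and the 4 of smallest unadjusted p. Of the 22626 other probe sets, 20380 had 1 symbol, 691 several and 1555 none, and only the first kind were named. Probe sets with the suffix _x, _s or _a may also bind related transcripts. The targeted gene is not reported here. The fit was tested on simulated data. Alternatives covered scaling, pseudocount, filter, intensity trend, weights for arrays, a replicate block, arrays left out and the choice of probe set.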

Additional observations from a re-analysis of the deposited data

How the results depend on the processing

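In none of the 19 alternatives did a member pass the test. The number of probe sets called over the whole table (2) was 10 without rescaling, 1 without a filter, 4 without wildtype 2 and knockout 1, and 0 to 4 with 1 array left out. The number of members whose groups did not overlap (5) ranged from 5 to 12 with 1 array left out, 12 without knockout array 2 and 9 without wildtype array 1, where fewer arrays make such separation more frequent (19.4% and 16.5% of all genes). It was 4 without rescaling (Syt1, Ykt6 and Stx4a lost, Stx1a and Syn1 gained), where 9.84% of all genes were apart. With averaged probe sets it was 4 (Vamp2 and Syt1 lost, Syt11 gained), and the share over all genes was not computed for that setting. The members' median (-0.026) was 0.067 with median scaling, where that of all probe sets was 0.088. Without rescaling it was 0.29, as was that of all probe sets. The members' median was 0.012 with the higher pseudocount, 0.023 with the stricter filter and -0.085 with all tested probe sets of a gene averaged. It was -0.072 with probe sets of shared-transcript suffixes left out, and -0.037 to 0.0072 with 1 array left out. The number of positive values (16) was 32 without rescaling, 8 with averaged probe sets and 10 of 29 without those suffixes.

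Signs turned in 77 of 617 member cases, and Syt1, Stx4a, Napa and Unc13a kept theirs in every setting run. Without rescaling, which shifts the median of all probe sets by 0.29, these turned positive: Syt4 (0.28), Syt5 (0.052), Syt7 (0.16), Snap25 (0.23), Stx7 (0.13), Ykt6 (0.0025), Cplx2 (0.16), Cplx3 (0.15), Nsf (0.17), Syp (0.29), Sypl (0.21), Syn2 (0.22), Sv2a (0.17), Syngr3 (0.18), Snap91 (0.24) and Dlg4 (0.24). With median scaling, where the median of all probe sets was 0.088, Syt4 (0.065), Snap25 (0.0086), Syp (0.067), Sypl (0.0081), Syn2 (0.024), Snap91 (0.021) and Dlg4 (0.054) turned. Quantile scaling turned Napb (-0.0012), Amph (-0.0082) and Dlg4 (0.0022). With averaged probe sets Syt4 (0.040), Syt11 (-0.20), Doc2b (-0.33), Vamp2 (-0.060), Vamp3 (-0.057), Cplx1 (-0.086), Napb (-0.32), Syngr1 (-0.046), Slc17a6 (-0.20) and Dnm1 (-0.11) turned, and without the suffixes Syt11 (-0.88) and Stx1a (-0.14). Array weights turned Stx1a (-0.029), Napb (-0.027), Syp (0.14), Sypl (0.0015), Syn1 (-0.034) and Snap91 (0.093). Leaving out wildtype 2 and knockout 1 turned Syt4 (0.029), Vamp3 (-0.043), Cplx1 (-0.096), Syp (0.16), Syngr1 (-0.021) and Amph (-0.0032), and the higher pseudocount turned Dlg4 (0.012). With 1 array left out the ranges that crossed 0 were Syt4 -0.067 to 0.051, Syt7 -0.33 to 0.076, Doc2b -0.041 to 0.24, Stx1a -0.013 to 0.25, Cplx2 -0.27 to 0.024, Napb -0.051 to 0.070, Syp -0.19 to 0.17, Sypl -0.18 to 0.0075, Synpr -0.048 to 0.29, Syn1 -0.019 to 0.34, Syn2 -0.20 to 0.13, Syngr1 -0.015 to 0.16, Snap91 -0.20 to 0.13, Amph -0.064 to 0.18 and Dlg4 -0.62 to 0.36. Apart from the shifts noted and the fewer arrays, the cause was not tested.

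The replicate block fit gave 0 members and 2 probe sets, and the lowest adjusted p of a member was 0.68. The numbers are not known to pair the samples: the correlation of deviations from the group means was 0.18, -0.029 and 0.084 where numbers match and -0.29 to 0.26 where they do not. The small number of arrays and the lack of detection calls limit what can be said of dim probe sets.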
